A study of Ovis aries and Bos taurus with 6 samples.

Results

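miR-21 and miR-22 were followed in small RNA of extracellular vesicles (EVs), membrane particles that cells shed, from milk, in 3 libraries of Ordos fine wool sheep and 3 libraries of Holstein cows. The labels speak of 3 sheep and do not give the number of cows. All animals were female and in mid lactation and no treatment is given for either species. The cow data come from an earlier study of the same laboratory, so a difference between species cannot be told apart from one between breeds or studies. The deposited tables list whole-number read counts per miRNA row, 685 rows for sheep and 779 for cow. Rows were taken whose name, without species prefix and arm suffix, is miR-21 or miR-22. This gave 5 of the 1464 rows: miR-21 and miR-22-3p in the sheep table, and miR-21-5p, miR-22-3p and miR-22-5p in the cow table.

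A miRNA precursor is cut into a pair of arms, named 5p and 3p, and usually one of them becomes the guide that a silencing complex uses to find messenger RNAs, mainly by pairing of the seed, bases 2 to 8. miR-21 is found in most tissues and is known in human and mouse for repressing the tumour suppressor PDCD4, and its guide is the 5p arm. miR-22, also widespread, has the 3p arm as its guide and is known in mouse for repressing the DNA demethylase TET2. In the RefSeq gene table of the sheep assembly ARS-UI_Ramb_v3.0, used here for names and neighbours only, MIR21 lies within the bounds of VMP1, a gene for an autophagy protein, and MIR22 overlaps a long non-coding RNA gene near TLCD2 and WDR81.

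The sheep table lists both mature sequences, shown because the seeds separate these miRNAs from all other sheep rows. The sheep row of miR-21, whose name has no arm suffix, was set against miR-21-5p, the only arm of miR-21 that the cow table lists. They are given 5′ to 3′ as DNA, with the seed in capitals:
miR-21, sheep: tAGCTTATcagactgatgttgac
miR-22-3p, sheep: aAGCTGCCagttgaagaactg
The listed miR-21 has 23 bases and 39.1% G and C, and miR-22-3p has 21 bases and 47.6%, against medians of 22 bases and 45.5% over the 84 sheep rows with a miRBase name. The seeds share 4 of 7 positions and, counted from the 5′ end, differ from miR-21 to miR-22 at T6G, A7C and T8C. No other sheep row carried either seed at bases 2 to 8, and none shared a run of 12 bases with either sequence. The 7 letters of the miR-22 seed stood elsewhere in 2 other sheep rows. The sheep values below are therefore not divided with a second row of near-identical sequence. No cow sequences were used here.

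The libraries held 1073914 to 2078695 miRNA counts in sheep and 328527 to 556489 in cow. Rows with a miRBase name made up 41.9% to 78.1% of a sheep library and 15.8% to 29.0% of a cow library. Fixed markers of mammary epithelium took 20.1% to 63.8% of the sheep counts, nearly all of it miR-148a, with 3 of 8 markers listed by name. In cow they took 0.121% to 0.243% with all 8 listed. Markers of red blood cells, striated muscle, liver and endothelium had no named row in the sheep table, so only the cow libraries can be read for them. There red blood cell markers took 1.53% to 2.76%, more than the epithelial markers. Endothelial markers took 0.173% to 0.279%, liver 0.0320% to 0.101% and striated muscle at most 0.00335%. Leukocyte markers took 0.463% to 0.900% in cow with all 6 listed, and 0.00308% to 0.0637% in sheep with 1 of 6 listed.

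miR-21 was one of the most abundant named miRNAs of sheep milk EVs and stood lower in cow. It had 23473, 41739 and 42224 counts in sheep replicates 1, 2 and 3, against 582, 1995 and 405 counts in cow replicates 1, 2 and 3. As a share of all miRNA counts it took 2.11%, 2.01% and 3.93% in these sheep libraries, against 0.177%, 0.358% and 0.104% in the cow libraries. Every sheep library lay above every cow library, and the lowest sheep share was 5.601 times the highest cow share. The mean was 2.68% ± 1.08 in sheep and 0.213% ± 0.131 in cow (SD, n = 3 each), 12.6 times higher in sheep, and 19.1 times without cow replicate 2, the library highest in miR-21. The exact two-sided permutation p was 0.1, the smallest that 3 libraries against 3 allow.

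miR-22-3p went the other way. It had 1008, 658 and 347 counts in sheep replicates 1, 2 and 3, against 2693, 2829 and 1858 counts in cow replicates 1, 2 and 3, although the sheep libraries were deeper. Its shares of all miRNA counts were 0.0908%, 0.0317% and 0.0323% in these sheep libraries, against 0.820%, 0.508% and 0.479% in the cow libraries. No sheep library reached a cow library, and the lowest cow share was 5.28 times the highest sheep share. The mean was 0.0516% ± 0.0339 in sheep and 0.602% ± 0.189 in cow (SD, n = 3 each, exact two-sided permutation p = 0.1), 11.7 times higher in cow. Among the 54 miRNAs that could be joined between the tables by name, 33.3% had non-overlapping shares higher in sheep and 22.2% non-overlapping shares higher in cow, so a separation of this kind was common. The 95% Wilson intervals of the single shares of both miRNAs reached at most 0.0369 percentage points to either side and cover counting error only.

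**Figure D1:**
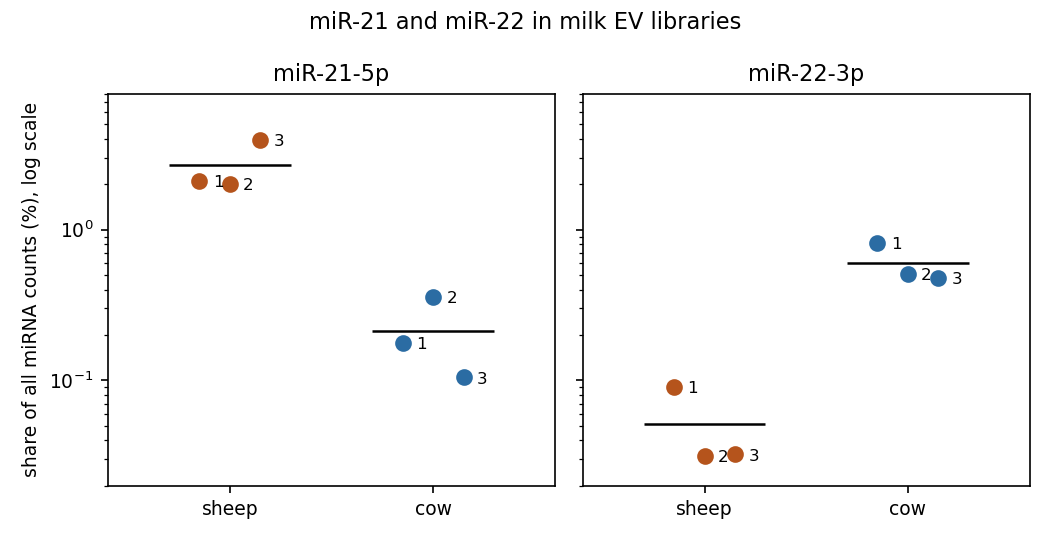
Share of all miRNA counts in each library (%, log scale) for miR-21-5p (left) and miR-22-3p (right), with sheep libraries in orange and cow libraries in blue, replicate numbers beside the points and bars at the group means. miR-21 is higher in all 3 sheep libraries (means 2.68% in sheep and 0.213% in cow) and miR-22-3p is higher in all 3 cow libraries (means 0.0516% in sheep and 0.602% in cow).

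The ranks showed the same crossing. miR-21 stood at rank 13, 6 and 5 among all rows of sheep replicates 1, 2 and 3, and at 33, 21 and 38 in cow replicates 1, 2 and 3. miR-22-3p stood at rank 71, 78 and 105 in the sheep libraries, against 13, 17 and 16 in the cow libraries. Among rows with a miRBase name alone, miR-21 ranked 3 to 5 of 84 in sheep and 16 to 25 of 276 in cow. miR-22-3p ranked 26 to 31 of 84 in sheep and 6 to 12 of 276 in cow. Since these named catalogues differ in size, ranks are a description within each table.

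By mean share, the neighbours of miR-21 among named sheep rows were miR-148a (40.4%), let-7b (4.66%) and let-7a (3.47%) above it and let-7c (2.14%), let-7i (2.06%) and miR-26a (1.07%) below it. Of these, miR-148a, a major miRNA of lactating mammary epithelium, and miR-26a did not overlap miR-21 over the 3 sheep libraries, while the 4 let-7 rows did. In cow its named neighbours were miR-125a, miR-150 and miR-10b above (0.409%, 0.384% and 0.331%) and miR-30e-5p, miR-192 and miR-3600 below (0.208%, 0.188% and 0.172%), and all 6 overlapped it. miR-22-3p stood in sheep between miR-99a (0.0823%) and miR-26b (0.0450%), with miR-221, miR-409-3p, miR-30d and miR-199a-3p next to these. In cow it stood between let-7a-5p (0.611%) and miR-27b (0.582%), with miR-423-5p, let-7f, miR-30d and the red blood cell miRNA miR-451 next to these. All of these neighbours of miR-22-3p overlapped it over the libraries of their species, so its exact place is not settled in either.

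The 2 miRNAs can be set against each other within a library, which needs neither a denominator nor a scaling factor. There were 23.3, 63.4 and 121.7 counts of miR-21 for each count of miR-22-3p in sheep replicates 1, 2 and 3. In cow replicates 1, 2 and 3 there were 0.216, 0.705 and 0.218. miR-21 thus exceeded miR-22-3p in every sheep library and fell below it in every cow library. On the log2 scale the ratio was 5.82 ± 1.202 in sheep and -1.64 ± 0.98 in cow (SD, n = 3 each), a difference of 7.46 with an exact two-sided permutation p of 0.1. That is 176-fold between the geometric means, and 33.0-fold between the nearest libraries, sheep replicate 1 and cow replicate 2. Without sheep replicate 1 the difference was 8.09, and without sheep replicate 3 it was 6.90. Ligation and amplification are not equally efficient for all miRNAs, so the ratio within a library is one of reads and not of molecules.

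**Figure D2:**
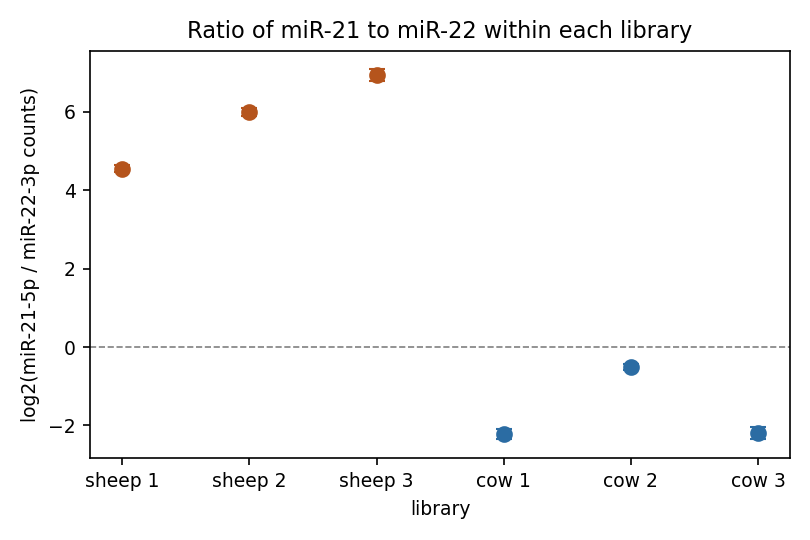
Log2 ratio of miR-21-5p to miR-22-3p counts in each library, with 95% Wilson intervals from counting error as bars and a dashed line at equal counts. The 3 sheep libraries lie above 0 (mean 5.82) and the 3 cow libraries below 0 (mean -1.64).

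Shares depend on what they are divided by, since a single row took 19.6% to 63.6% of a sheep library and 51.2% to 68.9% of a cow library. With the largest row of each library left out, miR-21 took 4.83% ± 1.95 in sheep and 0.5004% ± 0.208 in cow, 9.65 times higher in sheep, where 31.5% of joined miRNAs were higher in sheep without overlap. Of the counts of rows with a miRBase name it took 4.60% ± 1.85 in sheep and 0.908% ± 0.296 in cow, 5.07 times higher, against 18.5% of joined miRNAs. Of the counts of joined miRNAs it took 4.64% ± 1.87 in sheep and 1.498% ± 0.346 in cow, 3.10 times higher, against 14.8% (SD, n = 3 each, for all these shares). The sheep excess of miR-21 kept its direction and its lack of overlap under each of these denominators, but its size ran down with them. So did the gap between the nearest libraries. The lowest sheep share was 3.58 times the highest cow share without the largest row, 2.08 times among miRBase-named rows and only 1.37 times among joined miRNAs.

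The deposited TPM values are counts over 1 constant per library, which lies far above the miRNA total, and are not corrected for length. miR-21 had 2381, 2700 and 2624 TPM in sheep replicates 1, 2 and 3, against 44.4, 158.5 and 32.6 TPM in cow replicates 1, 2 and 3. The means were 32.7 times apart, with 15.02-fold between the nearest libraries, on a scale where 48.1% of joined miRNAs were higher in sheep without overlap. All miRNA rows together were 6.67% to 13.4% of that constant in sheep and 2.51% to 4.42% in cow, so the larger distance on this scale goes along with a larger miRNA share in the sheep libraries.

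For miR-22-3p the denominators worked in the other direction. The cow mean was 18.2 times the sheep mean with the largest row left out, 27.9 times among rows with a miRBase name and 47.2 times among joined miRNAs. Joined miRNAs that were higher in cow without overlap came to 29.6%, 31.5% and 38.9% under these denominators. In TPM the values were 102.2, 42.6 and 21.6 in sheep replicates 1, 2 and 3, against 205.6, 224.8 and 149.5 in cow replicates 1, 2 and 3. There the cow mean was 3.49 times the sheep mean and the nearest libraries were 1.46-fold apart, and only 11.1% of joined miRNAs were higher in cow without overlap. miR-22-3p was thus one of 6 joined miRNAs that stayed higher in cow without overlap on the scale least favourable to that direction.

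A fit across the joined miRNAs placed these differences among the others. It used edgeR's quasi-likelihood test with trimmed-mean scaling factors (TMM) on the 47 joined miRNAs that passed the filter on low counts. The factors lay far apart, from 0.307 in sheep replicate 2 to 2.70 in cow replicate 1. With them miR-148a came to 2.66e+06 normalized CPM in sheep replicate 2. The log2 fold change of miR-21, sheep over cow, was 2.82 ± 0.67 (SE), with an adjusted p of 0.00279 in edgeR after Benjamini-Hochberg adjustment over the 47. That of miR-22-3p was -4.33 ± 0.51 (SE), with an adjusted p of 3.73e-05 in the same edgeR fit. In normalized CPM, miR-21 was higher in 3 of 3 sheep libraries than in any cow library, as were 29.8% of the 47, and miR-22-3p was lower in 3 of 3 sheep libraries than in any cow library, as were also 29.8%. Of the 47, 46.8% were called, 21.3% higher in sheep and 25.5% higher in cow, so a call by itself does not set a miRNA apart here. miR-21 had the ninth largest change towards sheep, and miR-22-3p the seventh largest towards cow.

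**Figure D3:**
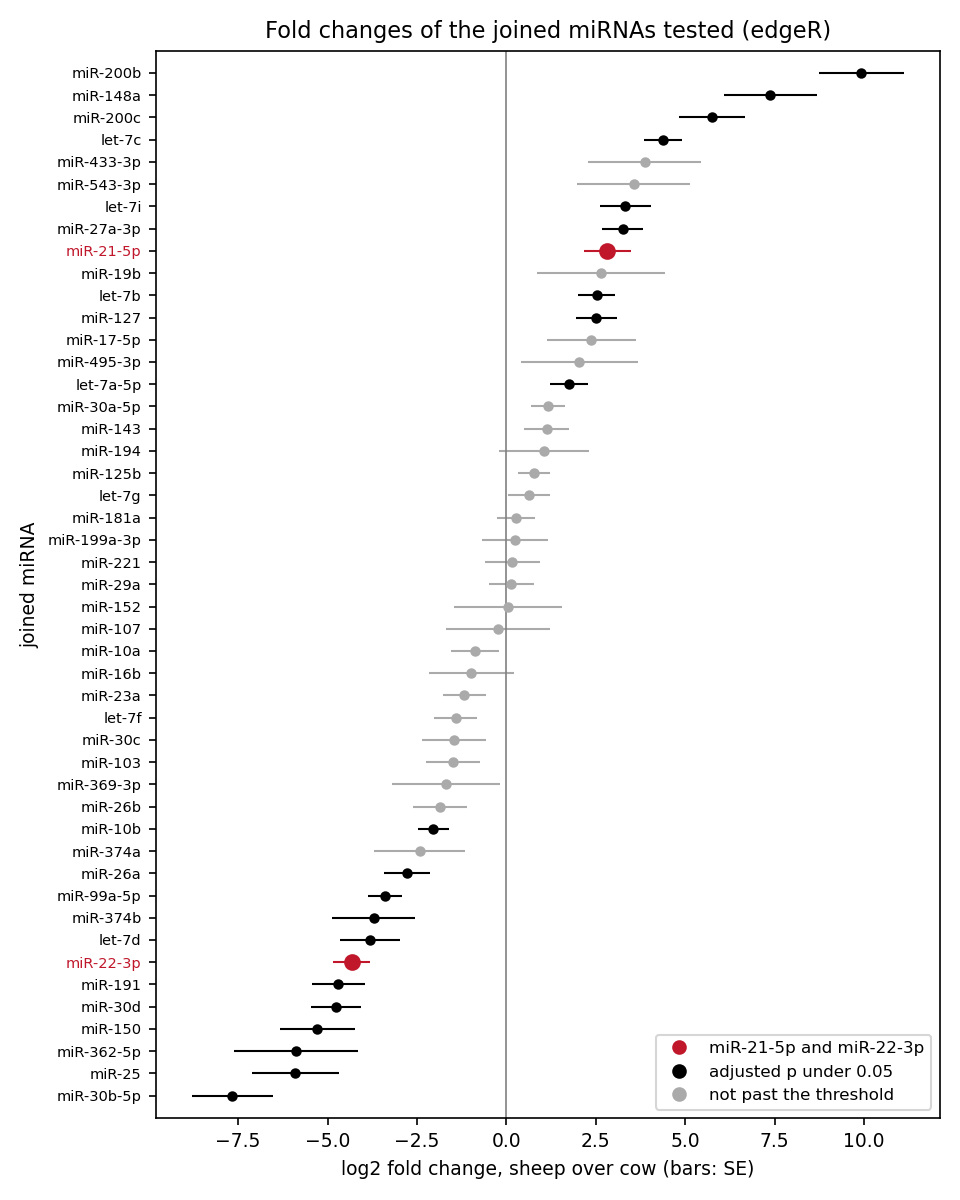
Log2 fold changes, sheep over cow, of the 47 joined miRNAs tested with edgeR, with standard errors as bars; red marks miR-21-5p (2.82) and miR-22-3p (-4.33), black the other miRNAs past an adjusted p of 0.05 and grey those that were not. Both lie well inside the range from miR-30b-5p (-7.66) to miR-200b (9.92), whose value rests on 1 cow count.

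Each direction kept its call under every setting in which the miRNA could be tested, 17 for miR-21 and 18 for miR-22-3p. The size moved with the scaling. miR-21 ran from 1.63 without scaling factors to 5.36 with limma on log2(TPM + 1), and miR-22-3p from -5.56 without scaling factors to -1.80 with the constant behind the TPM as library size. The median of all miRNAs tested was 0.14 with TMM, -1.10 without scaling factors and 2.55 with the constant. Measured from that median, miR-21 stood at 2.68 with TMM, 2.73 without factors and 2.48 with the constant, and miR-22-3p at -4.47, -4.46 and -4.35. Over the settings in which each was tested, that distance ran from 1.71 (without cow replicate 3) to 4.48 (with log2(TPM + 10)) for miR-21. For miR-22-3p it ran from -5.20 (without cow replicate 3) to -2.48 (with log2(TPM + 10)). The place of miR-21 in size of change towards sheep ran from 4 of 54 (with log2(TPM + 10)) to 18 of 52 (without cow replicate 3). That of miR-22-3p towards cow stayed at 4 to 7. Calls towards sheep and towards cow numbered 10 and 12 with TMM, 6 and 16 without factors, 15 and 12 with RLE factors, 15 and 11 with whole-table totals as library size and 23 and 6 with the constant. They numbered 26 and 6 with limma on log2(TPM + 1) and 20 and 3 on log2(TPM + 10). Single libraries counted for the size of the miR-21 change, which was 4.01 without sheep replicate 1 and 4.24 without cow replicate 2. The miRNAs shared with the full TMM fit moved too, by a median of 0.75 and 0.82 in these fits. Measured from the median of all tested, miR-21 stood at 3.13 and 3.73 there.

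**Figure D4:**
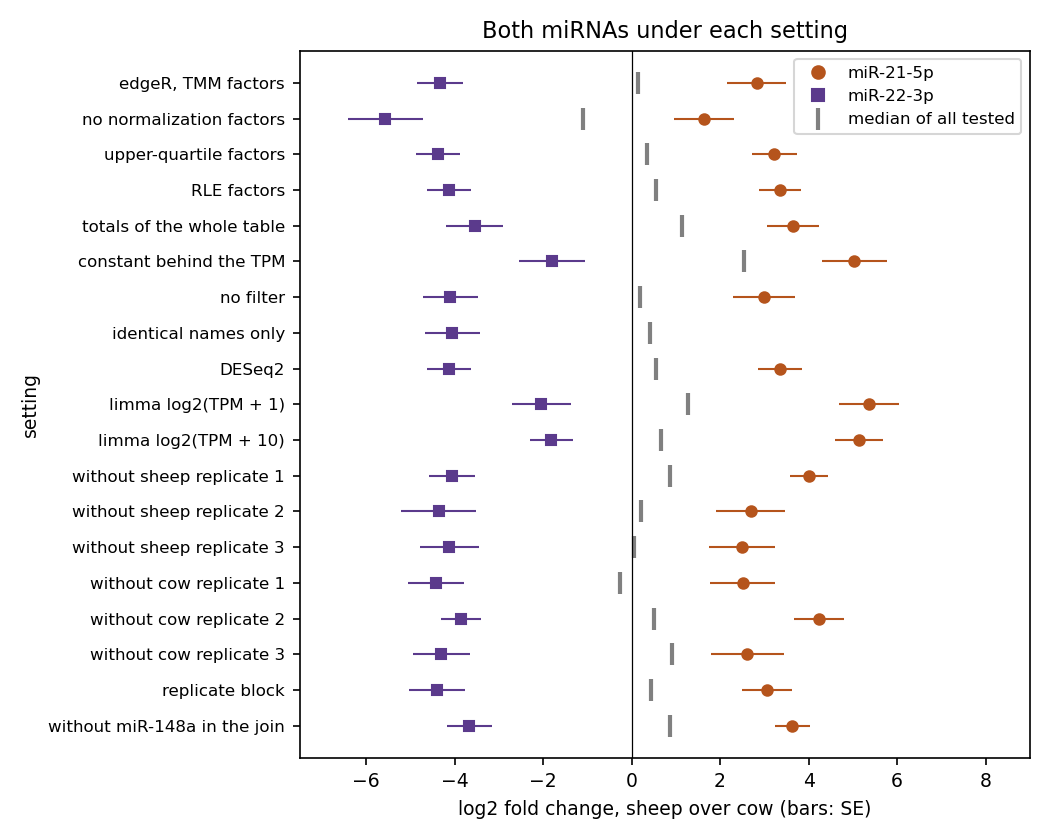
Log2 fold change, sheep over cow, of miR-21-5p (orange circles) and miR-22-3p (purple squares) under each setting, with standard errors as bars and a grey tick at the median of all miRNAs tested. miR-21-5p stays to the right of 0 (1.63 to 5.36), miR-22-3p to the left (-5.56 to -1.80), and the distance of miR-21-5p from the grey tick runs from 1.71 to 4.48.

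Ratios to single other miRNAs show the same without any scaling. Against 38 joined miRNAs with counts in every library, taken with 0.5 added to each count, the ratio of miR-21 was higher in sheep without overlap for 27 and higher in cow without overlap for 3. Those 3 were the epithelial miRNA miR-200c, miR-148a and let-7c. The ratio of miR-22-3p was higher in cow without overlap for 30 of 38 and higher in sheep for 1, miR-30b-5p. Over the 39 miRNAs the median was 10 others for sheep and 9 for cow. These ratios were added, and the miRNAs named in them chosen, after the values were known.

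The sheep replicates of miR-21 were closest on the TPM scale, where its cow replicates were furthest apart. Its coefficient of variation over the 3 sheep libraries was 6.50% in TPM, the lowest of 44 named sheep rows with a mean of at least 100 counts, whose median was 58.5%; that count minimum was set after the values were known. As a share of all miRNA counts the same libraries gave 40.3%, the 13th lowest of the 44, with a median of 49.8%. Over the other 3 denominators it was 40.2% to 40.4%, so the evenness in sheep held for 1 of the 5. In cow the coefficient of variation of miR-21 was 88.6% in TPM and 61.3% as a share of all counts, where it took 56th and 54th place from the lowest of 68 rows. Over named rows it was 32.6%, in 32nd place and below the median of 35.7%, and over joined miRNAs 23.1%, so a wide spread in cow held for some denominators only. Cow replicate 2 stood highest under all 5 denominators. In that library rows with a miRBase name took 29.0% of the counts, against 21.5% and 15.8% in cow replicates 1 and 3, and leukocyte markers took 0.900%, against 0.475% and 0.463%; their part in the miR-21 value was not tested.

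The spread of miR-22-3p also depended on the denominator. Its coefficient of variation in TPM was 75.5% in sheep, the 33rd lowest of 44, and 20.2% in cow, the seventh lowest of 68. Over named rows it was 96.2% in sheep and 36.3% in cow, the 37th lowest of 68, and with the largest row left out 36.3% in sheep and 31.2% in cow. Sheep replicate 1 was highest under all 5 denominators, with 2.81 times the share of the next library among all counts and 4.26 times among named rows. Without it, the cow mean share of all counts was 18.8 times the sheep mean. In that library stromal markers took 0.708% of the counts, against 0.168% and 0.232% in sheep replicates 2 and 3. The lymphocyte miRNA miR-150, the only leukocyte marker with a named sheep row, took 0.0637% there, against 0.00308% and 0.00363%, and miR-148a was lowest, at 19.6%. The other epithelial markers with a named sheep row were highest there, miR-200b, named after its values were seen, at 0.241%, against 0.0763% and 0.142%, and miR-200c at 0.316%, against 0.104% and 0.237%. The part of these in the miR-22-3p value was not tested. Bulk EV RNA cannot tell vesicles from fewer cells of a type from less of a miRNA per vesicle.

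**Figure D5:**
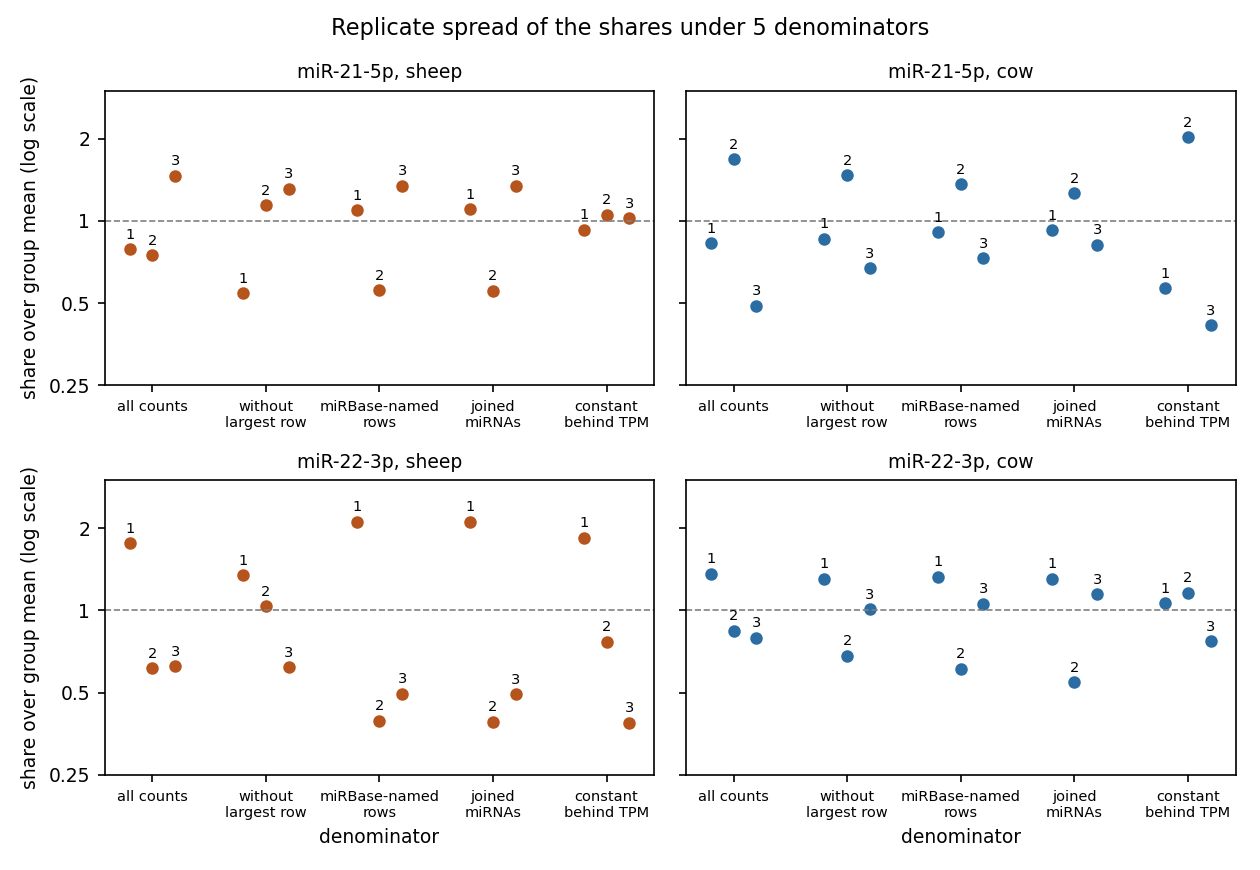
Share of each library over the mean of its group (log scale) under 5 denominators, for miR-21-5p (top) and miR-22-3p (bottom) in sheep (left, orange) and cow (right, blue), with replicate numbers at the points. miR-21-5p in sheep closes up to a coefficient of variation of 6.50% over the constant behind the TPM, against 40.3% over all counts, while sheep replicate 1 stays highest for miR-22-3p throughout.

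The passenger arm could be read for miR-22 in cow alone. miR-22-5p had 0, 27 and 14 counts in cow replicates 1, 2 and 3, beside the 3p counts given above. This was 0 of 2693 counts of both arms in replicate 1, which allows a share of up to 0.111% by the floor of 3 counts, 0.945% in replicate 2 (95% exact interval 0.624 to 1.37) and 0.748% in replicate 3 (0.409 to 1.25). Replicate 1 thus fell below the others by more than counting error. Summed over the libraries there were 180 counts of the 3p arm for each count of the 5p arm. Among 9 cow miRNAs with both arms listed and at least 100 counts, the minor arm of miR-22 took the fourth smallest share, 0.552%. No row was named for the other arm of miR-21 in either table or for miR-22-5p in sheep.

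Of the joined miRNAs, those most like miR-21 over the 6 libraries were let-7i, miR-27a-3p and let-7b, by the root mean square difference of log2 CPM after each miRNA was centred on its mean. The differences were 0.38, 0.63 and 0.73, where the median over 46 others was 2.26. Their own log2 fold changes were 3.32 ± 0.72, 3.25 ± 0.57 and 2.52 ± 0.52 (SE). Most like miR-22-3p were miR-99a-5p, miR-191 and miR-30d, with 0.58, 0.61 and 0.65 against a median of 2.61. Their log2 fold changes were -3.40 ± 0.48, -4.71 ± 0.74 and -4.76 ± 0.69 (SE). All 6 passed in edgeR with TMM, where 46.8% of the 47 tested were called. They were picked for likeness to called miRNAs in the same libraries, so their calls add no support. Without scaling factors the calls of miR-27a-3p (1.90) and let-7b (1.11) ended. The call of miR-99a-5p ended with the constant (-0.95) and with both pseudocounts in limma, and those of miR-191 and miR-30d with log2(TPM + 10), each at -1.98. miR-21 and miR-22-3p differed from each other by 3.83 on this measure. The measure was read from the 6 libraries of the comparison itself, which share the scaling, and describes these libraries only.

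Widely expressed miRNAs, a class that both members belong to, were called in both directions. Of 28 listed 16 were tested and 8 passed in edgeR, 3 higher in sheep (miR-21, let-7a-5p and miR-27a-3p) and 5 higher in cow (miR-22-3p, miR-26a, miR-191, miR-30d and miR-25). These 8 are 50% of those tested, near the 46.8% called among all 47. miR-26a changed by -2.78 ± 0.65 (SE, adjusted p = 0.00261 in edgeR), but by -0.44, -0.26 and -0.25 and not past the threshold with the constant, with log2(TPM + 1) and with log2(TPM + 10). miR-25, of the miR-106b-25 cluster and named after its values were seen, changed by -5.90 ± 1.22 (adjusted p = 0.00141, edgeR). It was low in sheep, at 44.7, 217.6 and 2.54 normalized CPM in replicates 1, 2 and 3. Its size ran from -7.81 to -1.83 over the settings, and it was called in all 18 others. let-7a-5p, of the let-7 family of differentiation, changed by 1.75 ± 0.54 (SE, adjusted p = 0.0147, edgeR). Its call ended without scaling factors (0.35) and without sheep replicate 2 (1.49), sheep replicate 3 (1.71), cow replicate 1 (1.51) or cow replicate 3 (1.80). let-7f (-1.42 ± 0.61) and miR-125b (0.76 ± 0.45) did not pass, but let-7f was called in the same direction in 2 of 18 other settings, without scaling factors (-2.66) and without cow replicate 1 (-1.75). miR-125b was called in the same direction in 9 of 18, among them the constant (3.15) and the fits without sheep replicate 1 (1.43) or without cow replicate 2 (1.40). The list median was -0.71 and the mean -1.01, where the median over all 47 was 0.14. With the constant behind the TPM the list median was 1.46 and the median over all tested 2.55, again lower for the list. The medians were close with log2(TPM + 1), at 1.17 and 1.27. With log2(TPM + 10) the order turned, at 1.04 for the list and 0.66 over all tested, so the lower list median depended on the setting. The split of calls was 1 to 8 without scaling factors, 5 to 5 with RLE factors, 7 to 4 with the constant and 7 to 2 with log2(TPM + 10).

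The cow values count the rows named miR-21-5p and miR-22-3p only. Rows without a miRBase name held 71.0% to 84.2% of the cow counts. To reach the lowest sheep share of miR-21, cow replicates 1, 2 and 3 would need a further 6015, 9179 and 7381 counts, and 3 of the 503 unnamed cow rows were that large in all 3 libraries. Whether any of them holds reads of miR-21 was not tested. The higher cow value of miR-22-3p could only grow by such reads.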

How the data were processed

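The authors deposited whole-number read counts per miRNA row and TPM values, each as 1 table per species. The submitters' processing notes name cutadapt 1.14 and Bowtie. Genome build, miRBase release and counting tool were not given in the sources used here. Per the labels' protocols, EVs came from a precipitation kit and libraries from a TruSeq small RNA kit. Species was taken from titles and breed, since the treatment text of the cow samples repeats that of sheep. The deposited TPM equals the count over 1 constant per library (9859791 to 16091056), scaled alike in all libraries.

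Rows were joined by name without species prefix, 42 identical and 12 in which one table lacks an arm suffix and the other lists a single arm. The 54 joined counts were tested with edgeR 4.0.16 (quasi-likelihood, TMM, library size equal to the joined total, filterByExpr, Benjamini-Hochberg, threshold 0.05; SE from the fold change and its F). Alternatives used limma 3.58.1, DESeq2 1.42.0, other scalings, filters and joins, and each library left out. The edgeR step was tested on simulated counts. Shares and ratios were compared with exact permutation tests (SciPy 1.17.1). Nothing says that the cow libraries came from separate animals. In edgeR the spread of each miRNA is drawn towards that of all miRNAs tested. The edgeR p-values set the species difference against this moderated spread between the libraries, which may be technical. All p-values thus speak for these libraries and may not hold for other animals. The floor of 3 counts is an upper bound for a row without counts, and lower counts were kept as they stood. It comes to 2.79 CPM in the shallowest sheep library and 9.13 CPM in the shallowest cow library. Floors and Wilson intervals cover counting error only.

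The miRNAs named are both members with every arm, the 3 most alike of each, the 3 miRBase-named neighbours to either side in mean share, up to 8 members of highest CPM of the list of widely expressed miRNAs, and markers, with a few others named after their values were seen. Another planned list is not reported here. Members and lists were chosen with earlier results of these data known.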

Additional observations from a re-analysis of the deposited data

How the results depend on the processing

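The call of miR-21-5p towards sheep held in all 17 alternatives that could test it (1.63 to 5.36 on the log2 scale, adjusted p 5.12e-15 to 0.0373), and that of miR-22-3p towards cow in all 18 (-5.56 to -1.80, adjusted p 2.71e-16 to 0.0292). With 1 library left out they ran from 2.50 to 4.24 and from -4.42 to -3.86. Shares of all counts (3.27 to 4.25 and -4.24 to -3.26) and the log2 ratio (6.90 to 8.09) kept their direction too, in designs that cannot pass the threshold. The joined miRNAs higher in sheep numbered 10 with TMM and 6 without scaling factors, 23 with the constant, 16 with DESeq2, 26 with log2(TPM + 1) and 20 with log2(TPM + 10). Those higher in cow numbered 12, against 6, 6 and 3 with the constant, log2(TPM + 1) and log2(TPM + 10). With 1 library left out they numbered 9 to 18 (16 without sheep replicate 1, 18 without cow replicate 2) and 10 to 13.

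Equal replicate numbers did not pair the libraries: deviations correlated by -0.09, 0.17 and 0.04 for numbers 1, 2 and 3, and not every library correlated best with its own number. With the replicate block miR-21-5p was at 3.07, miR-22-3p at -4.39, and 21 miRNAs passed against 22; the log2 ratio stayed at 7.46 (exact permutation p = 0.25, the smallest for 3 pairs). Leaving miR-148a out of the join, chosen after seeing the data, gave 3.63 and -3.67. Naming sheep rows by sequence from a reference was not run. miR-21-5p was not joined by identical names. Depth limits miR-22-5p, with at most 27 counts.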
